A study of Mus musculus with 2 samples.

Results

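Ddit4, a stress-induced brake on cell growth, and 7 further genes tied to glucocorticoid signalling (Tsc22d3, Fkbp5, Per1, Sgk1, Txnip, Nr3c1 and Cdkn1a) were described in splenocytes of Fx-/- mice that did or did not receive fucose. The set was chosen by name with measured differences of these arrays in view, in which Ddit4 stood near the negative end of all genes. Its values are therefore a description and test nothing. The set holds 8 of the 22180 genes measured. All 8 were among the 11090 genes whose mean log2 intensity over both arrays reached the median of all genes (2.88), the expression filter used throughout, and in all 8 both values lay above that limit. Each gene was read from the 1 probe set that names it alone.

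The Fx gene, now called Gfus, encodes the enzyme that completes GDP-fucose from mannose, and mice lacking it can make fucosylated glycans only from fucose that is supplied. Both groups were Fx-/-, and they were Fx-/- mice treated with fucose (on fucose, 1 array) and Fx-/- mice without that treatment (off fucose, 1 array). The labels used here give no age, sex, strain or number of mice and no dose or duration of fucose, and no wild-type group was analysed. Cells were labelled cDC1, a dendritic cell type that cross-presents antigen, after removal of B220+ and CD11b+ splenocytes with beads and selection of CD11c+ cells. RNA was measured on Affymetrix whole-transcript arrays. The listed T cell genes had median log2 intensities of 10.10 on fucose and 9.66 off fucose, and the listed cDC1 genes 4.28 and 5.49. The values of the 8 genes are therefore not read as those of cDC1 alone.

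Glucocorticoids are adrenal steroids whose level follows the day and rises with stress. They enter cells and bind the glucocorticoid receptor, the product of Nr3c1, which a complex of Hsp90 and co-chaperones holds ready in the cytoplasm. The bound receptor moves to the nucleus and switches on genes such as Tsc22d3, Fkbp5, Per1, Sgk1 and Ddit4, and in lymphocytes it favours quiescence and cell death. Several of these genes also answer to other signals, among them hypoxia, amino acid shortage, p53, glucose and the circadian clock.

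The 8 genes did not share a direction. Ddit4 was 2.90-fold lower off fucose and Per1 was 2.18-fold higher. The other 6 lay within 1.5-fold, and the receptor gene Nr3c1 had the same value on both arrays. With 1 array per group there was no replicate, so no difference below has a test, an SD or a p-value, and the number of arrays limits the precision. In bulk RNA, fewer cells of a type and less RNA per cell cannot be told apart. The sex-linked genes Xist and Uty also differed between the arrays, as between female cells on fucose and male cells off fucose. Sex and fucose therefore cannot be told apart in any difference below. All differences are given in log2, with the on-fucose value subtracted from the off-fucose value.

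**Figure D1:**
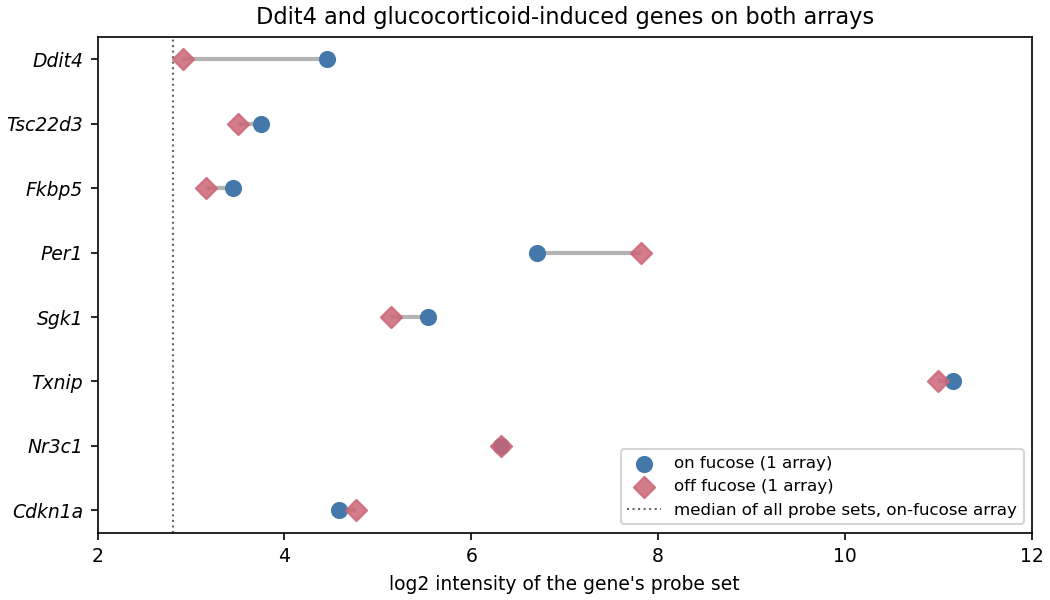
Log2 intensity (x axis) of the probe set of each of the 8 genes on the on-fucose array (circles) and the off-fucose array (diamonds), 1 array per group; the grey bar joins the 2 values and the dotted line is the median of all probe sets on the on-fucose array (2.81). Ddit4 goes from 4.45 to 2.92, next to that median, Per1 goes from 6.70 to 7.82, and the symbols of Nr3c1 coincide at 6.32.

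Among the 8 genes, 1 was at least 2-fold lower off fucose, where 0.514% of all genes past the filter were (57 of 11090), and 1 was at least 2-fold higher, where 2.37% were (263 of 11090). Nothing is read from these counts, since the set was chosen with the differences known. Off fucose, 5 genes had lower values, 2 had higher values and 1 was equal, where 56.5% of all genes past the filter had lower values. That share is also the background for the counts of lower genes in the lists below. For counts of higher genes, 4821 of the 11090 had equal or higher values, 145 of them equal. For counts beyond 2-fold, the background is 0.514% lower and 2.37% higher. The median difference of the 8 genes was -0.20, against -0.05 over all genes past the filter. It turned to 0.092 when differences were centred on T cell genes, which as a group were lower off fucose. This centring adds 0.29 to each difference by construction, so a negative value smaller in size than that must turn positive. As a yardstick for single genes, the robust SD of the differences was taken over genes of like mean intensity (20 bins, from 0.18 to 0.38), a spread with both technical and biological sources. Ddit4, Per1 and Sgk1, 3 of the 8, had differences larger than that value, and the others did not.

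**Figure D2:**
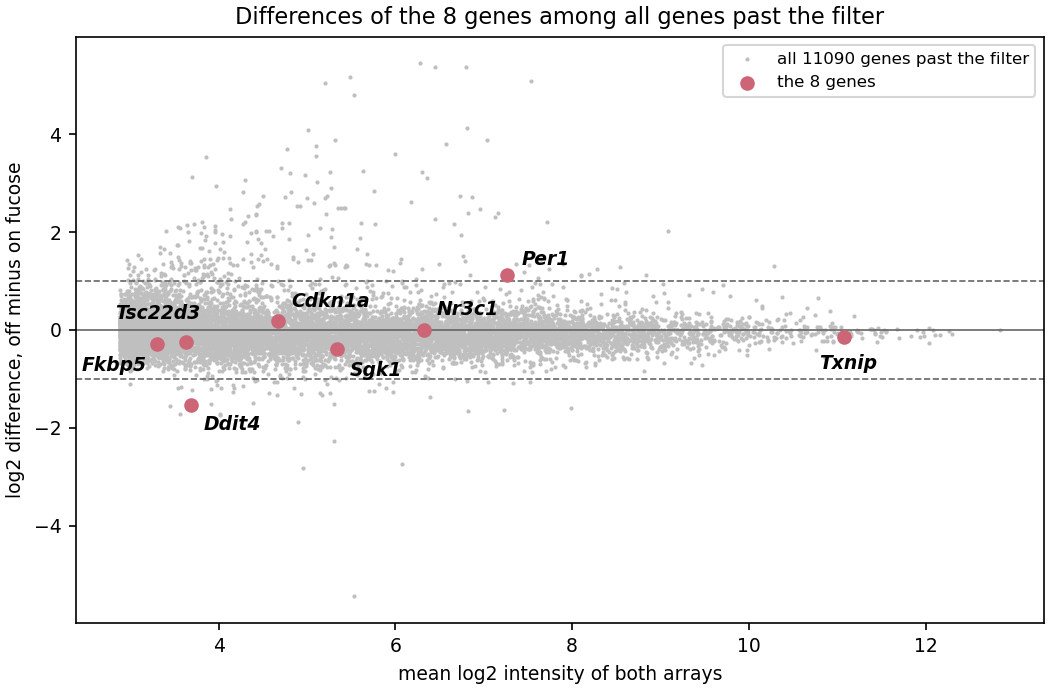
Log2 difference, off minus on fucose (y axis), against the mean log2 intensity of both arrays (x axis) for the 11090 genes past the filter (grey) and the 8 genes (red); dashed lines mark 2-fold. Ddit4 (-1.54) lies below the lower line and Per1 (1.12) just above the upper one, while the other 6 lie inside.

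The promoter windows of these genes were searched for motifs of known inputs, and 4 windows are printed here. They are those of the 2 genes 2-fold or more apart, and the 1 window with an exact match to the complete glucocorticoid response element. Each window spans 250 bases before to 50 bases after a RefSeq transcription start in build GRCm38.p6 and reads 5′ to 3′ along the gene. Capitals mark matches to the motifs searched on both strands, listed after the sequences. Of the 8 genes, 7 had entries in the RefSeq promoter table, with 16 starts in all, and Nr3c1 had none. Starts are numbered by coordinate.
Ddit4, chr10:59951721-59952020, minus strand: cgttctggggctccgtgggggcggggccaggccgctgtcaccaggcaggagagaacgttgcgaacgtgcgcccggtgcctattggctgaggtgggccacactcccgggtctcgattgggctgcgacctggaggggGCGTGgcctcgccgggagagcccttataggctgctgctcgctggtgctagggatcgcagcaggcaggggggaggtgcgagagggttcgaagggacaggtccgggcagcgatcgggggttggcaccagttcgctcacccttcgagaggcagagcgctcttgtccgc
Per1 start 1, chr11:69098699-69098998, plus strand: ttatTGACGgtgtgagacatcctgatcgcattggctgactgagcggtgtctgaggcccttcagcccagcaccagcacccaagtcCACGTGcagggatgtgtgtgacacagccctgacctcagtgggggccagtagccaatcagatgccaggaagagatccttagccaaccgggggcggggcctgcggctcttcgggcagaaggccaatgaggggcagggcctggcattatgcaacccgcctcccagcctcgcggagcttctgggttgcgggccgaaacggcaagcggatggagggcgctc
Per1 start 2, chr11:69099902-69100201, plus strand: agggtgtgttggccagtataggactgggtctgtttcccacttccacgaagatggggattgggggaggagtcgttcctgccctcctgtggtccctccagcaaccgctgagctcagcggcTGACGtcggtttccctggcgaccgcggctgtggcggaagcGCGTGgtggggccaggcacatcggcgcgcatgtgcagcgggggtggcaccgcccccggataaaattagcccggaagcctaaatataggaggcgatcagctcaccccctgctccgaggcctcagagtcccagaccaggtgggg
Sgk1 start 5, chr10:21993640-21993939, plus strand: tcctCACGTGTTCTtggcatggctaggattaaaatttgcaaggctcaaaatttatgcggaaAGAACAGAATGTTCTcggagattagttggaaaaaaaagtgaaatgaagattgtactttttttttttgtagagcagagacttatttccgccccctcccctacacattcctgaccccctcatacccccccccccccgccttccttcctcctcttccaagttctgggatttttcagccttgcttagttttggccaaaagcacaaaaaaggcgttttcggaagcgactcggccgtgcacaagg

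The motifs were the hexamer AGAACA that 1 unit of the glucocorticoid receptor binds; the complete element, made of that hexamer, any 3 bases and then TGTTCT; the E-box CACGTG, bound by clock and other basic helix-loop-helix factors; the hypoxia response core GCGTG; the cAMP response element TGACGTCA and its core TGACG; and the TATA box TATAAA. The hexamer lies within the complete element, and TGACG lies within the full cAMP element. Only exact matches were counted, so a window without a complete glucocorticoid element may still hold an imperfect one, which was not searched. The complete glucocorticoid element was found in 3 of 32851 windows of the table (0.00913%), 1 of them upstream of Sgk1 start 5, where it begins at position -189, counted from the start. The hexamer was found in windows of Sgk1 and Tsc22d3, in 4 of the 16, against 19.0% of all windows. The single Ddit4 window held 1 match to GCGTG, at position -115. GCGTG was present in 32.4% of all windows and in 8 of the 16 windows here, which belong to 6 of the 7 genes. The form ACGTG of the hypoxia core, which also lies within the E-box, was not searched or counted. The Ddit4 window holds it too, in lower case. Per1 start 1 held an E-box at -166, as 7.15% of windows did, and Fkbp5 held one at -169. Both Per1 windows held TGACG, at -246 and -132, against 20.8% of windows, and the full cAMP element, in 1.79% of windows, was in none of the 16. TATAAA was in 2 windows, both of Sgk1, against 13.6% of all. A match describes letters in these windows; it shows no binding, and elements farther away were not searched. In the Sgk1 window an E-box and a hexamer overlap near its 5′ end.

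**Figure D3:**
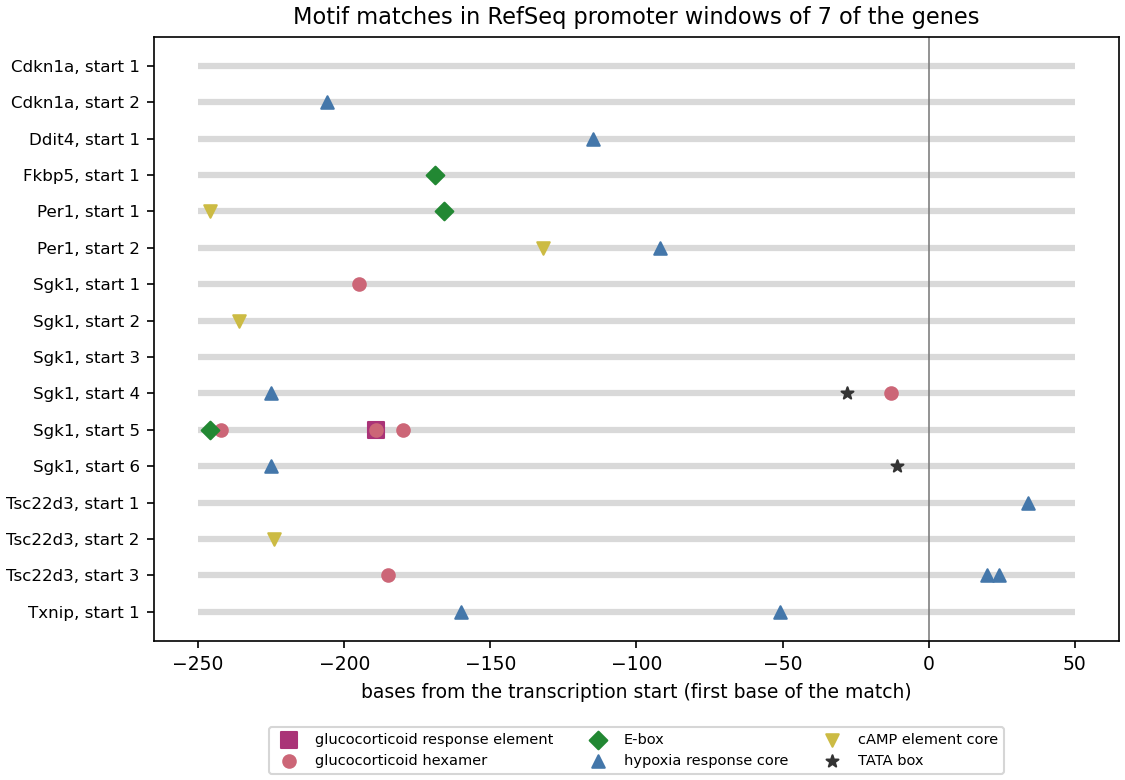
Motif matches (symbols) in the 16 RefSeq promoter windows of 7 of the genes; the x axis gives the first base of each match in bases from the transcription start. The square on Sgk1 start 5 at -189 is the only exact match to the complete glucocorticoid response element in these windows. It covers hexamers at -189 and -180.

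Nr3c1, the glucocorticoid receptor gene, had an intensity of 79.9, or 6.32 in log2, on both arrays. The deposited values were identical to the last digit. That was also so for 875 of the 41345 probe sets (2.12%) and for 145 of the 11090 genes past the filter. The equality describes the deposited values and carries no error. With centring on T cell genes the difference of Nr3c1 became 0.29. The other receptor gene for these steroids, Nr3c2, which encodes the mineralocorticoid receptor, had 2.67 and 2.87, around the median of all probe sets.

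Fkbp5 encodes FKBP51, a co-chaperone that lowers the receptor's affinity for hormone and is itself induced by it. Its intensity was 10.9 on fucose and 8.91 off fucose, or 3.45 and 3.16 in log2. The off-fucose value was the lower one, with a difference of -0.29 that was smaller than the yardstick of like genes (0.36), and with centring on T cell genes it was 0.00064. Its close relative Fkbp4, which encodes FKBP52, a co-chaperone that favours receptor activity, went from 6.08 to 5.59 (-0.48). Among the other FKBP genes past the filter, Fkbp11 went from 2.68 to 3.72 (1.05) and Fkbp1b from 2.66 to 3.55 (0.89), both passing the filter through their off-fucose value, and Fkbp2 from 7.43 to 8.03 (0.60). Fkbp1a (0.15), Fkbp3 (-0.0076), Fkbp8 (-0.0099) and Fkbp15 (-0.15) differed by less. Over the paralogs of all 8 genes, 17 were past the filter, 10 lower and 7 higher, with Fkbp11 the 1 gene beyond 2-fold and a median of -0.0099 that was 0.28 with centring on T cell genes.

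The genes that hold or assist the receptor mostly had slightly lower values off fucose, a direction that centring on T cell genes turns by construction. Of 14 measured genes past the filter in this list, which left out the 8 genes, 12 were lower and 2 higher, none by 2-fold, and the median was -0.18 (0.11 with centring on T cell genes). Fkbp4 had the largest negative difference, followed by Hsd11b1, which regenerates active glucocorticoid inside cells, at 6.28 and 5.89 (-0.39). On the positive side stood the chaperone gene Hsp90aa1, at 5.92 and 6.11 (0.20), and the chromatin remodeller gene Smarca4, at 7.83 and 7.88 (0.06).

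Tsc22d3 encodes GILZ, a leucine zipper protein that carries part of the anti-inflammatory action of glucocorticoids. Its intensity was 13.4 on fucose and 11.3 off fucose, or 3.75 and 3.50 in log2. The off-fucose value was lower by 1.19-fold (-0.25), less than the yardstick of 0.31, and the sign turned to 0.045 with centring on T cell genes. Tsc22d3 lies on the X chromosome, and the arrays differ in sex-linked genes, with Xist at 8.26 on fucose and 2.82 off fucose and the Y-linked gene Uty at 2.14 and 5.26. This difference in sex goes with fucose for all genes, X-linked or not. Over the 333 X-linked genes past the filter the median difference was -0.03, close to that of all genes, and 3 were at least 2-fold lower and 6 higher. Its paralogs Tsc22d1 (3.48 and 3.64), Tsc22d2 (4.10 and 3.81) and Tsc22d4 (4.25 and 4.04) also lay within 2-fold.

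Sgk1 encodes a kinase of the PI3K pathway that regulates ion channels and transporters and was named for its induction by serum and glucocorticoids. Its intensity was 46.3 on fucose and 35.3 off fucose, or 5.53 and 5.14 in log2. The off-fucose value was 1.31-fold lower, a difference of -0.39 against a yardstick of 0.32. Of the 11090 genes, 1314 had a difference as low or lower, so values of this size were common between these arrays. Under the 7 alternatives tried the difference ran from -0.46 to -0.10. Sgk3, a related kinase gene, went from 5.64 to 5.40 (-0.24), and Sgk2, which did not pass the filter, had a difference of -0.21.

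Per1 encodes a repressor of the circadian clock, and its transcription is also switched on within the hour by glucocorticoids and by cAMP signalling. Its intensity was 103.9 on fucose and 226.1 off fucose, or 6.70 and 7.82 in log2. The off-fucose value was 2.18-fold higher, a difference of 1.12 that was 4.38 times the yardstick of genes of like intensity (0.26). Among all genes past the filter, 228 had a difference as high or higher, and among the 2394 genes within 1 log2 unit of its mean 33 did. Under the 7 alternatives the difference ran from 1.01 to 1.41, and most of these could not turn the sign of a difference of this size.

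Other genes of the circadian clock were less far apart than Per1. Of the 13 past the filter, 8 were higher off fucose and 5 lower, none by 2-fold, with a median of 0.11 (0.41 with centring on T cell genes). Nr1d1, the clock repressor REV-ERB alpha, went from 3.40 to 4.06 (0.66) and Nfil3, a transcription factor under clock control, from 3.51 to 4.04 (0.52). The clock output factors Tef (3.28 and 2.97) and Dbp (4.12 and 3.85) were the lowest. Per3 was at 2.58 on both arrays and did not pass the filter, and Per2 had no probe set of its own.

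The genes nearest to Per1 in difference, among those of like mean intensity, came from several functions. The 5 nearest by the gap between the log2 differences, over the 2 arrays, were the MHC class II gene H2-Eb1 (1.13), the haem synthesis gene Fech (1.13), the orphan receptor gene Nr4a1 (1.10), Plac8 (1.15) and the histone gene H2bc3 (1.08). Nr4a1 is an early response gene, and such genes are known to react to cell isolation. In a list of 23 immediate early and dissociation genes past the filter, 17 were higher off fucose and 6 lower, 4 of them higher by 2-fold or more and 1 lower by 2-fold or more, and the median was 0.50 (0.33 on the log2(intensity + 16) scale, 0.80 with centring on T cell genes). The heat shock genes Hspa1b (5.97 and 8.28) and Hspa1a (6.62 and 8.82) had the largest positive differences, and Nr4a1 and Atf3 (3.28 and 4.34) were the other 2, picked out after their values were seen. Egr3 went from 4.54 to 3.42 (-1.13) and Dusp2 from 8.48 to 7.81. The part of this group in the value of Per1 was not tested.

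Ddit4 encodes REDD1, which holds back the growth kinase complex mTORC1 through TSC2 and is induced by glucocorticoids, hypoxia, p53 and the integrated stress response. Its intensity was 21.9 on fucose and 7.55 off fucose, or 4.45 and 2.92 in log2. The difference of -1.54 was 4.51 times the yardstick of like genes (0.34), and 14 of the 11090 genes, Ddit4 included, had a difference as low. The off-fucose value lay near the middle of the array, where 55.0% of probe sets were lower, against 77.0% on fucose. Most probe sets crowd at such intensities, where background makes up much of the signal and the size of a difference is less certain. On a scale of log2(intensity + 16), which shrinks differences of dim genes, Ddit4 had -0.69 and was no longer 2-fold lower. Under the other 6 alternatives it ran from -1.60 to -1.24, beyond 2-fold in each.

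The 5 genes most like Ddit4 in difference and of like mean intensity were Rnf26 (-1.56), the fascin gene Fscn1 (-1.51), the protease gene Asprv1 (-1.60), the MHC class Ib gene H2-M2 (-1.73) and Phf11c (-1.74). Like Ddit4 they had off-fucose values near the middle of the array, from 2.67 in Rnf26 to 3.15 in Fscn1. Fscn1 encodes an actin-bundling protein of mature dendritic cells. Ddit4l, the paralog of Ddit4, was at 2.44 on both arrays and did not pass the filter.

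Genes of the mTORC1 pathway mostly had slightly lower values off fucose, a direction that centring on T cell genes turns by construction. Of 32 past the filter, 25 were lower, 6 higher and 1 equal, with a median of -0.16 (0.14 with centring on T cell genes). Sesn1, a sestrin gene that restrains mTORC1 when amino acids are short, was the 1 gene at least 2-fold lower and went from 6.61 to 5.33 (-1.28). Sesn3 went from 7.51 to 6.82 (-0.69) and Sesn2 from 3.58 to 3.74 (0.17). Eif4ebp1, which encodes a translation repressor that mTORC1 switches off, was the 1 gene at least 2-fold higher, at 4.75 and 5.82 (1.07). The catalytic subunit gene Mtor, named outside the rule, had 6.52 on both arrays.

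Genes that answer to hypoxia and to the integrated stress response, 2 other inputs of Ddit4, were counted in the same way, and p53 targets are given with Cdkn1a. Of 19 hypoxia-induced genes past the filter, 12 were lower and 7 higher, with a median of -0.092 (0.20 with centring on T cell genes). The 1 gene beyond 2-fold was Pfkfb3, a regulator of glycolysis, which went from 5.84 to 3.95 (-1.89). Vegfa, the angiogenic growth factor gene, went from 2.58 to 3.30 (0.72) and passed the filter only through its off-fucose value. Higd1a went from 6.28 to 6.51 (0.23) and Car9, a carbonic anhydrase gene, from 3.48 to 3.22 (-0.26). Of 19 integrated stress response genes, 15 were higher and 4 lower. Nupr1, at 2.71 and 3.46, was among the higher and passed the filter only through its off-fucose value. The median of the 19 was 0.26. That median was 0.12 on the log2(intensity + 16) scale, 0.16 with no expression filter, 0.15 with the filter at the 67th percentile and 0.56 with centring on T cell genes. Atf3 was the 1 gene beyond 2-fold, followed by Ppp1r15a, which ends the response by restoring translation, at 8.02 and 8.88 (0.86), and the lowest were Cebpg at 5.53 and 4.99 (-0.54) and Wars, a tRNA synthetase gene, at 7.35 and 7.04 (-0.31).

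Cdkn1a encodes p21, an inhibitor of cyclin-dependent kinases that p53 induces. Its intensity was 24.1 on fucose and 27.2 off fucose, or 4.59 and 4.76 in log2. The difference of 0.18 was smaller than the yardstick of 0.31 and ran from 0.11 to 0.47 under the 7 alternatives. Of 18 further p53 targets past the filter, 13 were lower and 5 higher, with a median of -0.22 (0.070 with centring on T cell genes). Sesn1, also on this list, was the 1 gene beyond 2-fold, and the death receptor gene Fas had 5.73 on fucose and a difference of -0.73. Pmaip1 (3.28 and 3.53) and Bbc3 (3.99 and 4.17), which encode the cell death proteins NOXA and PUMA, had the largest positive differences. Cdkn1b, the gene of the related inhibitor p27, had 6.09 on fucose and a difference of -0.091, and Cdkn1c, below the filter, had 2.83 and 2.78. Beside these values, all 20 measured cell cycle genes were past the filter, Birc5 only through its off-fucose value, and all were higher off fucose. Of these 20, 15 were higher by 2-fold or more, against 2.37% of all genes past the filter. The median difference of the 20 was 1.38. Their summed intensity was 1238 on fucose and 2413 off fucose.

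Txnip encodes an alpha-arrestin that binds thioredoxin and limits glucose uptake, and its transcription follows glucose through MondoA. It had the highest intensities of the set, 2279 on fucose (11.15 in log2) and 2047 off fucose. Probe sets respond differently, so levels of single genes are not compared. The difference of -0.16 was smaller than the yardstick of 0.18 and turned to 0.14 with centring on T cell genes. A second probe set, which names Txnip together with Gm15441, had 3.74 and 3.72 and was not used for the gene. Of 15 genes past the filter in the list of MondoA, alpha-arrestin and thioredoxin genes, 9 were higher and 6 lower, none by 2-fold, with a median of 0.023 that turned to -0.041 with centring on housekeeping genes. The peroxiredoxin gene Prdx2 went from 8.09 to 8.93 (0.83) and Arrdc4, another MondoA target and alpha-arrestin gene, from 3.50 to 4.09 (0.59). Mlx, the partner of MondoA, went from 7.20 to 6.77 (-0.43) and Arrdc1 from 6.19 to 5.89.

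FoxO factors also drive Txnip and Sesn1. Of 18 FoxO genes and targets past the filter, 13 were lower and 5 higher, with a median of -0.14 (0.15 with centring on T cell genes). Gabarapl1, an autophagy gene, was the 1 gene beyond 2-fold and went from 3.19 to 4.49 (1.29), and Irs2, an insulin receptor substrate gene, had 7.37 on fucose and a difference of 0.63. Foxo1 went from 8.40 to 7.99 (-0.41).

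Further genes that glucocorticoids induce in many cell types did not share a direction. Of 30 such genes measured, 24 passed the filter, and 13 of these were lower off fucose and 11 higher. Lcn2, at 2.83 and 3.64, passed only through its off-fucose value, and Angptl4, at 3.13 and 2.83, only through its on-fucose value. The median difference of the 24 was -0.012, and their mean was 0.19. The median turned positive under quantile normalisation, loess, median centring, no expression filter and centring on T cell genes, the last at 0.28. At least 2-fold higher were Anxa1, which encodes annexin A1, an anti-inflammatory protein abundant in myeloid cells, at 3.33 and 6.87 (3.54), the G protein signalling regulator Rgs2 at 6.85 and 8.18 (1.33), and the metallothionein gene Mt1 at 3.28 and 4.41 (1.12), the last named outside the rule. Sesn1 was the 1 gene at least 2-fold lower, followed by the lipid phosphatase gene Lpin1 at 5.92 and 5.24 (-0.68). The dual-specificity phosphatase gene Dusp1, also named outside the rule, went from 9.21 to 9.97 (0.76), and Zfp36, an mRNA decay factor gene, from 9.57 to 9.55.

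**Figure D4:**
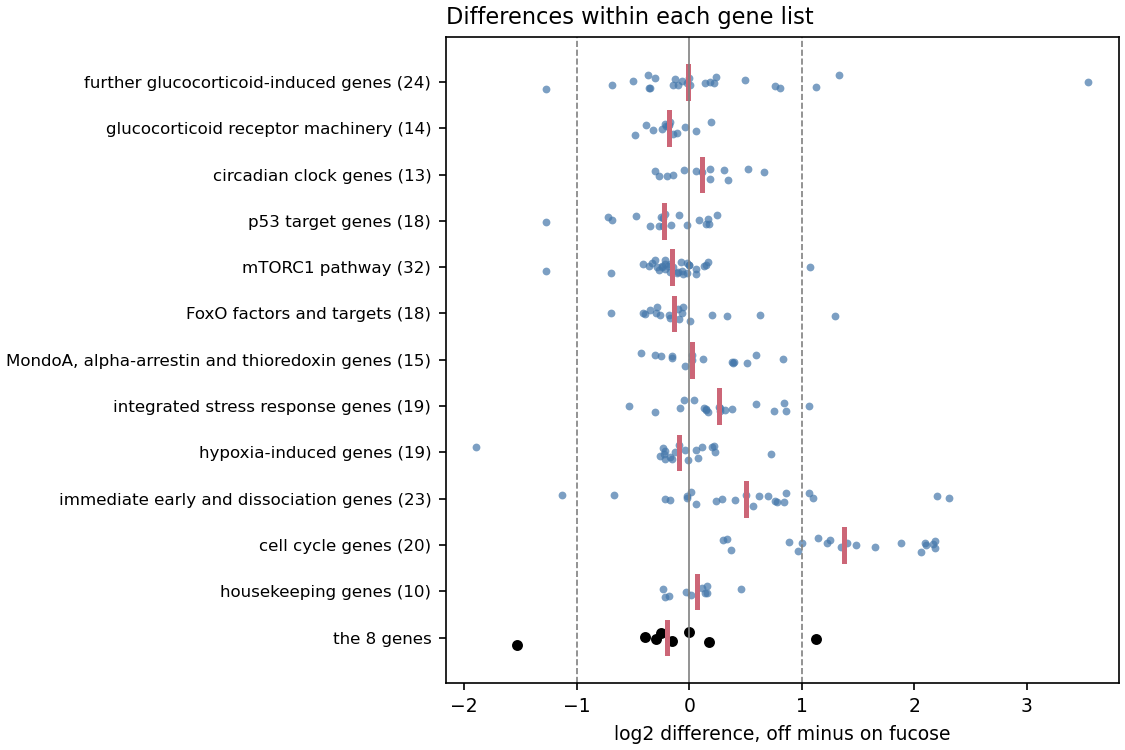
Log2 differences, off minus on fucose (x axis), of the genes past the filter in each list (points; number of genes in parentheses) and of the 8 genes (black points in the bottom row); red bars are medians and dashed lines mark 2-fold. The medians of the receptor machinery (-0.18), mTORC1 (-0.16) and p53 (-0.22) lists lie left of 0 and turn positive with centring on T cell genes, while the cell cycle median (1.38) lies to the right.

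Markers of several cell types differed between the arrays. All 12 T cell genes past the filter were lower off fucose, none by 2-fold, with a median of -0.29 and intensities that summed to 14643 and 12144 (on-fucose array first, here and below). The 15 cDC1 genes summed to 857 and 1181, with a median difference of 0.53. The 4 at least 2-fold higher were Irf8, a transcription factor gene these cells need, at 4.18 and 6.68, Naaa at 5.97 and 8.36, Tlr3 at 2.95 and 4.96 and Wdfy4 at 4.28 and 5.84, and the lowest differences were those of Ly75, which encodes DEC-205, at 6.80 and 5.86 (-0.93), and Itgae, which encodes CD103, at 6.02 and 5.64 (-0.38). The cDC1 marker Xcr1 was near the median of all probe sets at 2.90 and 3.43, as was Zbtb46 at 2.84 and 2.98, while Itgax, which encodes CD11c, had 3.83 and 3.86. Cd8a, which T cells also express, had the highest on-fucose value of the 15 genes, at 8.37 and 8.22, and weighs on their sum. Granulocyte precursor genes summed to 127.7 and 2999, with 9 of 11 past the filter at least 2-fold higher, erythroid genes to 73.5 and 462 (5 of 7), basophil and mast cell genes to 168 and 1466 (7 of 8), and monocyte and macrophage genes to 1468 and 2243 (4 of 6). Ly6c2, which some T cells also express, made up 1388 and 1895 of that last sum, and the other 7 measured genes summed to 79.4 and 347. Over all genes past the filter, 2.37% were at least 2-fold higher. Of the genes counted here as 2-fold higher, Ms4a3, S100a8, S100a9, Camp, Csf1r and Fcer1a passed the filter only through their off-fucose value. So did Epb42 and Gata1, which were within 2-fold. The granulocyte gene Gfi1, lower off fucose (3.13 and 2.61), did not pass. B cell genes summed to 81.5 and 73.0, NK cell genes to 409 and 283, and plasmacytoid dendritic cell genes to 627 and 627, with none 2-fold apart in these 3 lists. Most of the last 2 sums came from Prf1 (8.09 and 7.44) and Bst2 (9.17 and 9.15), which other cells also express. Siglech, a plasmacytoid marker, had 2.48 and 2.32 and did not pass the filter. The part of these cell types in the differences of Ddit4, Per1 and Anxa1 was not tested.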

How the data were processed

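Expression was measured on 2 Affymetrix whole-transcript arrays, 1 per group. The deposited table holds 1 intensity per probe set and array (41345 probe sets), which the authors obtained with RMA (per the submitters' processing notes); its version, settings and genome build are not given in the sources used here. Values ran from 2.74 to 9512, were read as intensities on a linear scale, and log2 was taken. Of the probe sets, 23521 had 1 gene symbol in the platform annotation, 1814 had several and 16010 were not listed and are unnamed here. Per gene, the probe set with the highest mean stood for it. With 1 array per group there is no test.

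The genes and lists were chosen with earlier results of these data known. From each pathway list up to 2 of the highest and 2 of the lowest genes past the filter could be named, with paralogs of the 8 genes, and, for genes at least 1.5-fold apart, the 5 genes nearest in difference with a mean within 1 log2 unit. Genes beyond this rule were picked after their values were seen. The alternatives were the mean of probe sets, quantile normalisation, loess (span 0.3), centring on the median of all genes, on housekeeping genes or on T cell genes, log2(intensity + 16), other filters and thresholds, and list means. The counting code was run on simulated data with larger differences than those of the 8 genes and less noise. That checks the code and not the counts given here. Promoter sequences are from RefSeq (GRCm38.p6). Python 3.11.15 with statsmodels 0.14.6 was used.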

Additional observations from a re-analysis of the deposited data

How the results depend on the processing

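No paired analysis was possible because there is a single array on each side, which also leaves no replicate to drop. Signal little above background limits Ddit4, Fkbp5 and Tsc22d3. The mean of probe sets could not change the 8 genes, which have 1 each. Quantile normalisation, loess, median centring and centring on housekeeping genes moved none of the 8 differences by as much as the yardstick of like genes and left counts of 1 lower and 1 higher. Neither Ddit4 nor Per1 changed sign under any alternative run.

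Centring on T cell genes adds 0.29 to each difference by construction. It gave 1.41 for Per1, 0.14 for Txnip, 0.29 for Nr3c1 and 0.092 for the median of the 8 genes, with 23 genes in all at least 2-fold lower and 479 higher. The list medians became 0.28 for further glucocorticoid-induced genes, 0.11 for receptor machinery, 0.41 for the clock, 0.070 for p53 targets, 0.14 for mTORC1, 0.15 for FoxO, 0.32 for MondoA and arrestins, 0.56 for the integrated stress response, 0.20 for hypoxia, 0.80 for immediate early genes and 0.28 for paralogs.

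On the log2(intensity + 16) scale Ddit4 had -0.69, so 0 of the 8 genes were 2-fold lower, 11 of all genes were lower and 116 higher, and medians were -0.096 for p53 targets, 0.12 for the integrated stress response and 0.33 for immediate early genes. The integrated stress response median was 0.16 with no expression filter, 0.15 with the filter at the 67th percentile, where paralogs had -0.15, and 0.15 (0.146) at a mean of 5 or more, where immediate early genes had 0.70 and all genes 25 lower and 97 higher. These filters change which genes are counted. At 1.5-fold, 473 genes were lower and 640 higher; at 3-fold, 12 and 118, with 0 of the 8 genes in either direction. List means in place of medians gave 0.19 for further glucocorticoid-induced genes and 0.13 for MondoA and arrestins.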
